A study of Mus musculus with 8 samples.

Results

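The 10 genes described here encode sugar and monocarboxylate carriers of the kidney tubule. They are 5 members of the Slc5 family of sodium-coupled cotransporters (Slc5a1, Slc5a2, Slc5a8, Slc5a10 and Slc5a12) and 5 members of the Slc2 family of facilitative sugar carriers (Slc2a1, Slc2a2, Slc2a4, Slc2a5 and Slc2a9). They were taken by gene symbol from a table of 21705 genes, and all 10 passed the filter on low values, a mean of at least 10 over all libraries, that left 13677 genes for testing. RNA came from mouse kidney cortex in 4 libraries labelled Sav1-/- and tamoxifen (abbreviated KS in the labels) and in 4 labelled Sav1+/+ and vehicle (abbreviated Ctrl), both on a mixed background strain. They are called Sav1-null and wild-type below. Sav1 encodes a scaffold protein of the Hippo kinase pathway, and the comparison asks how the cortex differs once it is lost. The labels used here give neither age nor sex, nor the promoter that drives a tamoxifen-dependent recombinase, and no group received tamoxifen with intact Sav1.

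Filtered glucose is taken back by the proximal tubule in a relay. SGLT2 (Slc5a2) in the brush border of the early segments takes up the bulk with sodium, SGLT1 (Slc5a1) in the later segment takes up what is left, and GLUT2 (Slc2a2) lets glucose leave across the basolateral membrane towards the blood. GLUT1 (Slc2a1) is the carrier of cells that take glucose up for their own use, and the remaining members move fructose or mannose, urate, lactate and other monocarboxylates, or, in the case of GLUT4 (Slc2a4), insulin-regulated glucose in muscle and fat.

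The deposited unit is a normalized expression level, scaled so that 75% of the genes with any signal lie below about 1000 in each library. By the size of the smallest steps between values, the Sav1-null libraries held about 15700000 to 20900000 reads and the wild-type libraries about 20500000 to 25000000, and no member value rested on fewer than 289 reads. Sav1 averaged 898 ± 127 in Sav1-null and 1350 ± 345 in wild-type libraries (SD, n = 4 each), with overlapping ranges (log2 fold change -0.56 ± 0.19 SE, limma adjusted p = 0.0220), and the labels do not say which exons are removed. Xist averaged 12229 ± 2922 in Sav1-null and 0.247 ± 0.494 in wild-type libraries, and the Y-linked Ddx3y, Eif2s3y, Uty and Kdm5d were at 0 in every Sav1-null library. Genotype, tamoxifen and sex-chromosome transcripts therefore separate the same libraries and cannot be told apart as sources of any difference below. The library names of both groups end in the same set of tags, whose meaning is not given. Whether the groups were processed together is not known here. Of the tested genes, 69.1% were called between the groups, 43.9% higher and 25.2% lower in Sav1-null libraries (limma, adjusted p under 0.05).

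SGLT2 and the lactate carrier SMCT1 (Slc5a8) were 9.36-fold and 6.05-fold lower in Sav1-null cortex, while SGLT1 and GLUT1 were 2.02-fold and 2.54-fold higher. Of the 10 members, 2 were called higher (Slc5a1 and Slc2a1), 7 were called lower (Slc5a2, Slc5a8, Slc5a10, Slc2a2, Slc2a4, Slc2a5 and Slc2a9) and Slc5a12 was not called. The groups did not overlap in 2 members that were higher and in 6 that were lower, against 41.0% and 24.1% of all tested genes. The median log2 fold change of the members was -0.63, against 0.23 for all tested genes. The Slc5 members split into 1 higher, 3 lower and 1 not called (median -0.72), and the Slc2 members into 1 higher and 4 lower (median -0.41). In bulk cortex, fewer cells of a type and less RNA per cell cannot be told apart.

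**Figure D1:**
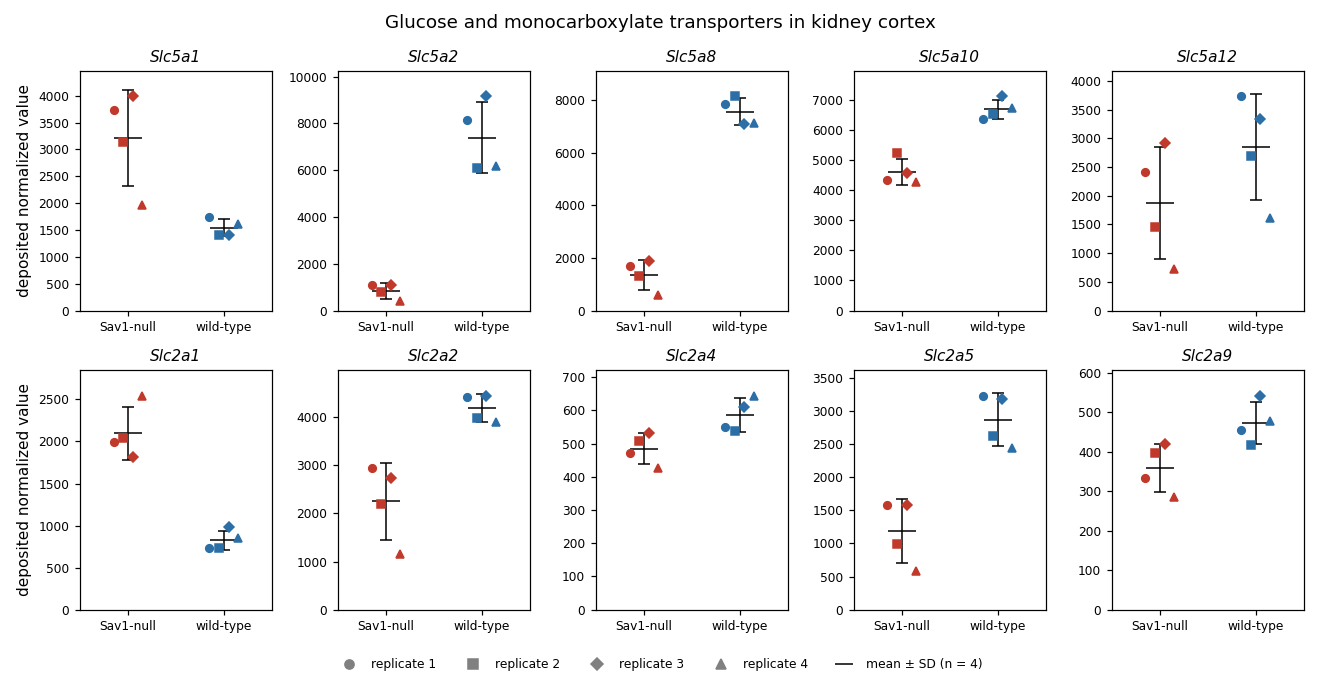
Deposited normalized value of each of the 10 carriers, with 1 point per library, Sav1-null left of wild-type in each pair, and bars at the group means. The points of both groups lie apart in every gene except Slc5a12 and Slc2a9, and the largest difference of group means is that of Slc5a2 (839 against 7392).

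The start regions of the 2 members that were higher and of a strongly lower member are shown so that the short motifs counted below can be seen in place. Each is the 250 bases before the RefSeq transcription start on build GRCm38.p6, read 5′ to 3′ on the strand of the gene. Windows were found for 7 of the 10 members (8 windows, 2 of them for Slc5a10); Slc5a2, Slc5a12 and Slc2a4 had no entry. Capitals mark ACGTG, the core of the hypoxia response element, and GGGCGG, the GC box, on either strand (CACGT and CCGCCC on the other). In Slc5a1 the capitals are CACGTG, which holds ACGTG on both strands. The windows lie at chr5:33103969-33104218 (plus strand) for Slc5a1, chr4:119108495-119108744 (plus strand) for Slc2a1 and chr10:88885742-88885991 (plus strand) for Slc5a8.
Slc5a1: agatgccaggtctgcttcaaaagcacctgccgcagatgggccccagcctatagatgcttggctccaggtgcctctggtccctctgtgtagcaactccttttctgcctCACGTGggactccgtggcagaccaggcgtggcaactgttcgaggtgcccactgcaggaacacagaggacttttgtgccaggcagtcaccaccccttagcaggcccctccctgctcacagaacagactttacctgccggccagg
Slc2a1: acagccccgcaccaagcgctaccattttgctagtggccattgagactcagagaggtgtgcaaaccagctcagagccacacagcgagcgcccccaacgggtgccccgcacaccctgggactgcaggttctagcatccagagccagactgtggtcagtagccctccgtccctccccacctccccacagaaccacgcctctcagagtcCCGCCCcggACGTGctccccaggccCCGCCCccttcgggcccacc
Slc5a8: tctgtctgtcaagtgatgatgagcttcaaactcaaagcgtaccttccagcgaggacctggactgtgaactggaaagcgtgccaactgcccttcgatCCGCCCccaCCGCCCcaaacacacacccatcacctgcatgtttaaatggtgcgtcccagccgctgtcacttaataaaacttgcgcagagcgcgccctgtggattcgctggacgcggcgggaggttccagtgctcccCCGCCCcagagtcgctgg

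GC content was 66.4% in the Slc2a1 window and 58.8% in that of Slc5a8, with Slc5a1 between them, against a median of 52.4% over all 32851 windows. ACGTG stood in 2 of the 8 member windows, those of Slc5a1 and Slc2a1, and in 16.6% of all windows. In the Slc2a1 window it began 36 bases before the start, and in the Slc5a1 window at 142 bases on the gene's strand. GGGCGG stood in the windows of Slc2a1, Slc2a5 and Slc5a8 and in 32.7% of all windows. CATTCC, the core bound by the TEAD factors that work with YAP, was found in 1 of the Slc5a10 windows and in 12.6% of all windows. TTCNNNGAA, the palindrome of STAT factors, was in none of the 8 member windows and in 7.02% of all. Such matches are letters in a window and say nothing of binding.

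Slc5a2, the high-capacity brush border glucose carrier, was at 1077, 797, 1096 and 387 in the Sav1-null libraries (replicates 1 to 4), against 8153, 6083, 9155 and 6179 in the wild-type libraries. Every Sav1-null library lay far below every wild-type library, and replicate 4 was the lowest of its group. The mean of 839 ± 331 in Sav1-null libraries was 11.3% of the 7392 ± 1513 in wild-type libraries (SD, n = 4 each). The log2 fold change was -3.23 ± 0.31 (SE; 95% interval -3.93 to -2.52), a 9.36-fold lower level (limma adjusted p = 1.91e-05). In the reference annotation 20.6% of the exon bases of Slc5a2 lie opposite exons of BC017158, and whether the authors' counting used strand is not given in the sources used here. BC017158 averaged 840 ± 91.9 in Sav1-null and 982 ± 74.1 in wild-type libraries (log2 fold change -0.23, limma adjusted p = 0.0563), and the part of shared reads in the Slc5a2 value was not tested.

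Slc5a1, which carries glucose and galactose with high affinity in the last segment and in the gut, went the other way. Its values were 3730, 3142, 3987 and 1973 in Sav1-null libraries, against 1743, 1412, 1406 and 1610 in wild-type libraries. All Sav1-null values lay above all wild-type values, with replicate 4 only a little above the highest wild-type library. The means were 3208 ± 896 in Sav1-null and 1543 ± 164 in wild-type libraries, 2.02-fold higher (log2 fold change 1.01 ± 0.20, 95% interval 0.56 to 1.47, limma adjusted p = 0.00158).

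Slc5a10, the mannose and fructose carrier SGLT5 of the brush border, changed least among the called sodium-coupled members. It was at 4355, 5246, 4559 and 4263 in Sav1-null libraries, against 6385, 6546, 7120 and 6731 in wild-type libraries. The groups did not overlap, and the 4 values within each group lay close together. The Sav1-null mean was 68.8% of the wild-type mean (log2 fold change -0.54 ± 0.09, limma adjusted p = 0.000393). The call was lost with quantile normalization (-0.06, adjusted p = 0.563) and with libraries scaled to equal totals (-0.16, adjusted p = 0.106). Slc5a10 shares 16.6% of its exon bases with the opposite-strand Fam83g, which averaged 273 ± 65.8 in Sav1-null and 219 ± 8.07 in wild-type libraries (limma adjusted p = 0.138).

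The monocarboxylate carriers of the brush border differed from each other. Slc5a8 (SMCT1), the high-affinity carrier of lactate, pyruvate and short-chain fatty acids, was at 1679, 1297, 1866 and 590 in Sav1-null libraries, against 7855, 8130, 7091 and 7130 in wild-type libraries. The wild-type libraries lay close together and every Sav1-null library fell well below them. Its Sav1-null mean of 1358 ± 564 was 17.98% of the wild-type mean of 7551 ± 522, 6.05-fold lower on the log2 scale used for the test (-2.60 ± 0.31, limma adjusted p = 6.62e-05).

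Slc5a12 (SMCT2), the low-affinity lactate carrier, was at 2407, 1447, 2918 and 723 in Sav1-null libraries, against 3730, 2691, 3329 and 1613 in wild-type libraries. The ranges overlapped, since Sav1-null replicates 1 and 3 exceeded wild-type replicate 4, the lowest of its group. The means were 1874 ± 980 in Sav1-null and 2841 ± 923 in wild-type libraries (log2 fold change -0.72 ± 0.42, 95% interval -1.68 to 0.24, limma adjusted p = 0.159). The interval reaches from a value over 3-fold lower to one slightly above no change, and without Sav1-null replicate 4 the log2 fold change was -0.32.

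Among the facilitative carriers, Slc2a1 (GLUT1) was the only member higher in Sav1-null libraries. It was at 1997, 2036, 1812 and 2544 in Sav1-null libraries, against 731, 736, 978 and 849 in wild-type libraries. The highest wild-type value lay well below the lowest Sav1-null value, and Sav1-null replicate 4, low for most other members, was here the highest. The means were 2097 ± 314 in Sav1-null and 824 ± 116 in wild-type libraries, 2.54-fold higher (log2 fold change 1.35 ± 0.13, 95% interval 1.06 to 1.637, limma adjusted p = 1.80e-05). GLUT1 is also made by many cells outside the proximal tubule. Summed macrophage markers ranged from 4505 to 5759 in Sav1-null and from 932 to 1407 in wild-type libraries, and all 6 of those measured were called higher. Summed collecting duct markers ranged from 19892 to 30340 in Sav1-null and from 10484 to 13285 in wild-type libraries (6 of 9 called higher, 1 lower). Summed erythroid markers went the other way. They ranged from 1038 to 1707 in Sav1-null and from 3558 to 8077 in wild-type libraries (4 of 5 tested called lower, 1 higher). Summed fibroblast and pericyte markers ranged from 2635 to 7995 in Sav1-null and from 1156 to 1860 in wild-type libraries (5 of 6 tested called higher). Summed T and B lymphocyte markers ranged from 144 to 181 in Sav1-null and from 45.0 to 52.6 in wild-type libraries (4 of 4 tested called higher, all of them T cell genes). Summed podocyte markers ranged from 1618 to 3607 in Sav1-null and from 3970 to 5144 in wild-type libraries (1 of 6 called higher, 4 lower). Of 6 endothelium markers none was called higher and 1 lower. Of 5 thick ascending limb markers 2 were called higher and 1 lower. Of 5 distal convoluted tubule markers none was called higher and 1 lower. Of 5 smooth muscle markers 3 were called higher and 1 lower. The part of these cells in the Slc2a1 value was not tested.

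Slc2a2 (GLUT2), the basolateral exit carrier, was at 2940, 2189, 2729 and 1157 in Sav1-null libraries, against 4422, 3972, 4446 and 3899 in wild-type libraries. All Sav1-null values were below all wild-type values, and replicate 4 was again the lowest. The Sav1-null mean was 53.9% of the wild-type mean (log2 fold change -0.98 ± 0.26, 1.97-fold lower, limma adjusted p = 0.00722). Wild-type replicates 2 and 3 had 1099 and 665 of the injury marker Havcr1, against 23.6 and 15.5 in wild-type replicates 1 and 4, and without both the log2 fold change of Slc2a2 was -0.97 (limma adjusted p = 0.0518).

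Slc2a5 (GLUT5), the fructose carrier, was at 1583, 990, 1586 and 588 in Sav1-null libraries, against 3231, 2617, 3178 and 2442 in wild-type libraries. The groups lay apart, and the Sav1-null values spread more widely. The Sav1-null mean was 41.4% of the wild-type mean (log2 fold change -1.37 ± 0.29, 2.59-fold lower, limma adjusted p = 0.00227).

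Slc2a9 (GLUT9), which carries urate, was at 333, 398, 420 and 284 in Sav1-null libraries, against 454, 416, 543 and 479 in wild-type libraries. Sav1-null replicate 3 reached just above wild-type replicate 2, so the ranges touched. The Sav1-null mean was 75.8% of the wild-type mean (log2 fold change -0.41 ± 0.14, limma adjusted p = 0.0265). That call was lost with equal library totals (-0.03, adjusted p = 0.869), without Sav1-null replicate 1 (adjusted p = 0.0630) and without wild-type replicate 3 (adjusted p = 0.0760) or 4 (adjusted p = 0.0584), and without both wild-type libraries of higher Havcr1 (adjusted p = 0.0956).

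Slc2a4 (GLUT4) was at 472, 509, 532 and 425 in Sav1-null libraries, against 549, 539, 611 and 644 in wild-type libraries. The groups lay apart by the narrowest margin among the called members whose ranges did not overlap. The Sav1-null mean was 82.8% of the wild-type mean (log2 fold change -0.27 ± 0.10, limma adjusted p = 0.0351). With equal library totals the sign turned (0.11, adjusted p = 0.308). The call was also lost without Sav1-null replicate 1 (adjusted p = 0.0741) or 4 (adjusted p = 0.0566) and without wild-type replicate 3 (adjusted p = 0.0846) or 4 (adjusted p = 0.0991), and without both wild-type libraries of higher Havcr1 (adjusted p = 0.0976). Markers of fat and muscle, the tissues known for GLUT4, are given beside it. Summed adipocyte markers ranged from 205 to 590 in Sav1-null and from 309 to 370 in wild-type libraries. Nearly all of that sum was Fabp4, which endothelium also makes, at 550, 462, 578 and 194 in Sav1-null libraries, against 370, 331, 319 and 309 in wild-type libraries. Retn and Lep were at 0 in all 8 libraries, and Adipoq, Plin1 and Cfd did not exceed 0.9843 in any. Cidec, below the filter and so not tested, was at 7.03, 3.91, 12.6 and 9.84 in Sav1-null libraries. In wild-type libraries it was at 0, 0.838, 0 and 0, so its groups lay apart. Summed skeletal muscle markers ranged from 17.7 to 21.1 in Sav1-null and from 10.3 to 17.2 in wild-type libraries, with Myh4 at 0 throughout. The part of these cells in the Slc2a4 value was not tested.

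Ratios taken within a library do not move with a single scaling factor per library, though quantile normalization can move them. The log2 ratio of Slc5a1 to Slc5a2 was 1.79, 1.98, 1.86 and 2.35 in Sav1-null libraries, against -2.23, -2.11, -2.70 and -1.94 in wild-type libraries. The sign changed between the groups, and no library lay near 0. The difference of 4.24 ± 0.21 (SE) is an 18.9-fold change of the ratio. For Slc2a1 over Slc2a2 the log2 ratio averaged -0.03 ± 0.81 in Sav1-null and -2.35 ± 0.20 in wild-type libraries, a difference of 2.32 ± 0.42 or 5.002-fold. For Slc5a8 over Slc5a12 it averaged -0.40 ± 0.22 in Sav1-null and 1.48 ± 0.51 in wild-type libraries, a difference of -1.88 ± 0.28. All 3 ratios separated the groups (two-sided exact permutation p = 0.0286 for each, also after adjustment over the 3). That is the smallest p that 4 against 4 allows over its 70 assignments. For Slc5a1 over Slc5a2 and for Slc2a1 over Slc2a2 the separation was fixed beforehand. Slc5a1 and Slc2a1 lay wholly higher and Slc5a2 and Slc2a2 wholly lower, so the p-values of these ratios add nothing to the member results.

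Levels of different genes were set side by side per kb of the longest protein-coding transcript. On that scale SGLT1 made up 65.8%, 68.6%, 66.9% and 73.9% of Slc5a1 plus Slc5a2 in Sav1-null libraries, against 10.6%, 11.4%, 7.85% and 12.6% in wild-type libraries. SGLT1 was the larger share in every Sav1-null library and the smaller in every wild-type library. GLUT1 made up 53.7%, 61.4%, 53.1% and 79.0% of Slc2a1 plus Slc2a2 in Sav1-null libraries and averaged 25.1% ± 2.56 in wild-type libraries (SD, n = 4). Slc5a8 made up 33.4% ± 3.37 of Slc5a8 plus Slc5a12 in Sav1-null libraries and 64.5% ± 7.76 in wild-type libraries. With coding length in place of transcript length, GLUT1 averaged 50.8% in Sav1-null and 17.3% in wild-type libraries. Under that scale it was below 50% in Sav1-null replicates 1 to 3, so which carrier is the larger there depends on the length used.

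**Figure D2:**
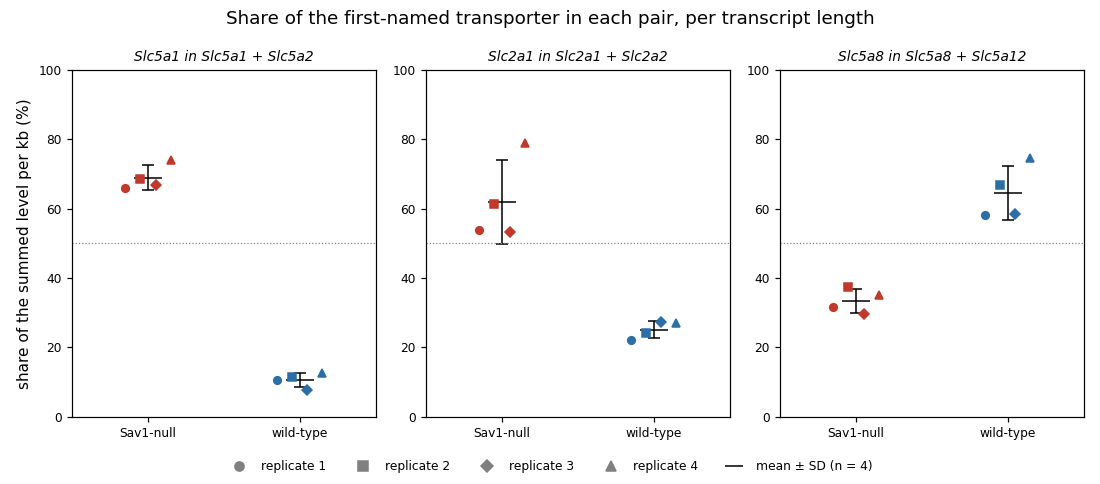
Percent of each pair of carriers, per kb of transcript, with 1 point per library, Sav1-null left of wild-type, and bars at the group means. Slc5a1 takes 68.8% of Slc5a1 plus Slc5a2 in Sav1-null libraries and 10.6% in wild-type libraries.

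Per kb of transcript the order of mean levels differed between the groups. In Sav1-null libraries Slc5a10 led (2037 per kb), followed by Slc5a1 (782), Slc2a1 (643), Slc5a12 (531), Slc2a2 (405), Slc2a5 (376), Slc5a2 (368), Slc5a8 (255), Slc2a4 (192) and Slc2a9 (99.6). Only Slc5a10 against Slc5a1 and Slc2a4 against Slc2a9 were neighbours whose ranges did not overlap there. In wild-type libraries the order was Slc5a2 (3246 per kb), Slc5a10 (2961), Slc5a8 (1417), Slc2a5 (908), Slc5a12 (805), Slc2a2 (751), Slc5a1 (376), Slc2a1 (253), Slc2a4 (232) and Slc2a9 (131). The wild-type ranges overlapped for Slc5a2 and Slc5a10, for Slc2a5, Slc5a12 and Slc2a2, and for Slc2a1 and Slc2a4. Per kb of coding sequence Slc5a8 led in wild-type libraries, ahead of Slc5a10 and Slc5a2, so the top of that order rests on the length chosen. Slc5a2 thus held rank 7 of 10 in Sav1-null and rank 1 in wild-type libraries per kb of transcript.

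The proximal tubule genes used as a yardstick were also lower as a group. Of 13 such genes, 12 were called lower and none higher, with a median log2 fold change of -1.97, against 0.23 for all tested genes. With quantile normalization 8 were called lower and 1 higher. Each carrier was therefore also given as its log2 value minus the mean log2 value of these 13 genes in the same library, as a description without a test. On this scale Slc5a2 averaged -2.95 ± 0.10 in Sav1-null and -1.55 ± 0.23 in wild-type libraries, and Slc5a8 averaged -2.27 ± 0.045 in Sav1-null and -1.50 ± 0.17 in wild-type libraries. These 2 were the members that lay lower relative to the list, by 1.39 and 0.76, with groups that did not overlap. The other 8 lay higher relative to the list, also without overlap, by 0.46 for Slc2a5, 0.86 for Slc2a2, 1.115 for Slc5a12, 1.29 for Slc5a10, 1.43 for Slc2a9, 1.56 for Slc2a4, 2.85 for Slc5a1 and 3.18 for Slc2a1. The list mean itself changed by -1.83, so a gene at the median of all tested genes (0.23) would also lie higher. The share of all tested genes lying apart on this scale was not counted. None of the 13 yardstick genes, which ranged from -3.05 (Slc34a3) to 0.63 (Slc13a1), had a log2 fold change below that of Slc5a2, and 3 had one below that of Slc5a8.

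**Figure D3:**
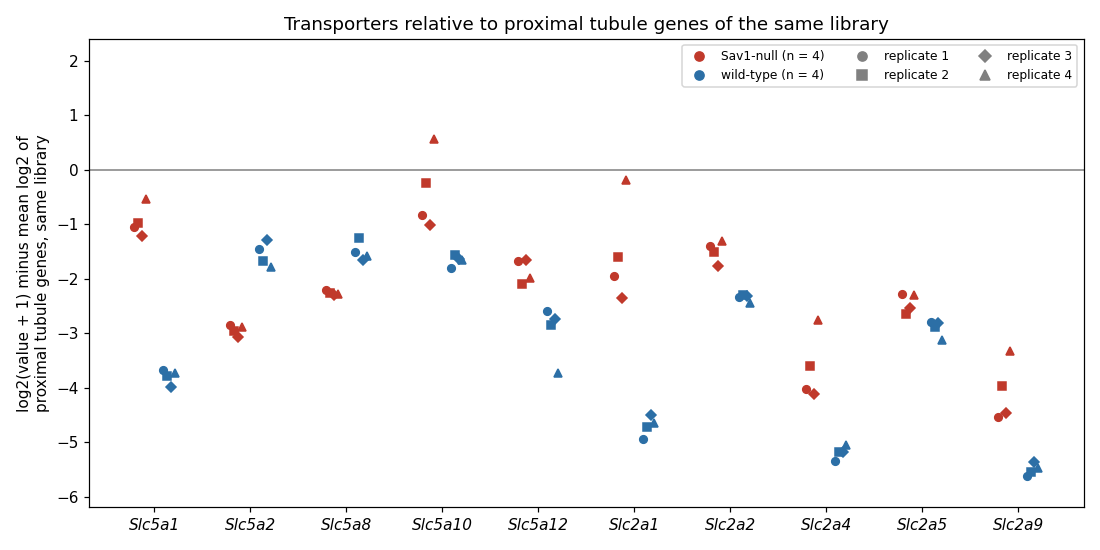
Level of each carrier relative to the mean log2 level of 13 proximal tubule genes in the same library, with 1 point per library and Sav1-null left of wild-type. Slc5a2 and Slc5a8 lie lower in Sav1-null libraries (differences of -1.39 and -0.76) and the other 8 lie higher. The mean of the 13 genes itself changed by -1.83.

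By the ratio of highest to lowest value, the Sav1-null libraries varied more than the wild-type libraries in all 10 members. The share of all tested genes that did so was not counted. By the SD of the values, Slc5a2 (331 in Sav1-null, 1513 in wild-type) and Slc2a4 (46.8 in Sav1-null, 50.6 in wild-type) varied less in Sav1-null libraries. Over all compared genes, the chi-square per degree of freedom between libraries reached 114 in Sav1-null pairs with replicate 4. It was 14.0 to 28.1 in the other Sav1-null pairs and at most 32.2 in wild-type pairs. The highest Sav1-null value was 4.03 times the lowest for Slc5a12, 3.17 times for Slc5a8, 2.83 times for Slc5a2, 2.70 times for Slc2a5 and 2.54 times for Slc2a2. It was 1.25 times the lowest for Slc2a4 and 1.23 times for Slc5a10. Sav1-null replicate 4 was the lowest of its group for 9 of the 10 members, and Slc2a1 was instead highest there. Slc5a1, Slc5a2, Slc5a8, Slc5a12 and Slc2a5 ranked the Sav1-null libraries in the same order as the mean of the proximal tubule genes did (3, 1, 2 and 4 from high to low). Summed proximal tubule markers ranged from 74240 to 243044 in Sav1-null and from 534784 to 595259 in wild-type libraries, and the part of this spread in the carriers was not tested. Relative to the proximal tubule list, the SD over Sav1-null libraries was 0.10 for Slc5a2 and 0.045 for Slc5a8, but 0.71 for Slc5a10 and 0.95 for Slc2a1.

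The rest of both families, and the Slc16 monocarboxylate carriers, moved in both directions. Of 8 other Slc5 genes 4 were tested, and 2 were called lower and none higher. They were Slc5a11, a myo-inositol carrier (714 ± 210 in Sav1-null and 1207 ± 154 in wild-type libraries, 1.74-fold lower), and the vitamin carrier Slc5a6 (1.47-fold lower), with limma adjusted p of 0.00652 and 0.00689. Both calls were lost with equal library totals. Of 7 other Slc2 genes 5 were tested, with 2 called higher and 1 lower (3 and 1 without Sav1-null replicate 4). Slc2a6 was at 56.2, 172, 55.3 and 436 in Sav1-null libraries, against 4.53, 2.51, 5.74 and 3.09 in wild-type libraries. Sav1-null replicate 4 held the largest of these values, and all Sav1-null libraries lay above all wild-type libraries (log2 fold change 4.70 ± 0.63, limma adjusted p = 0.000131, and 4.10 without that library, 3.78 with quantile normalization and 3.30 with a pseudocount of 10). The wild-type mean of Slc2a6 was 3.97, so the gene passed the filter of 10 only through its Sav1-null values, and its fold rests on a low wild-type level. Slc2a3 (GLUT3), the high-affinity carrier known from neurons and white blood cells, averaged 25.2 ± 10.2 in Sav1-null and 11.5 ± 3.05 in wild-type libraries (limma adjusted p = 0.0230), and its sign turned with quantile normalization (-0.09). That call was also lost without Sav1-null replicate 2 (adjusted p = 0.0615) or 3 (adjusted p = 0.0685), without wild-type replicate 2 (adjusted p = 0.0594), without both wild-type libraries of higher Havcr1 (adjusted p = 0.0904) and with median-of-ratios scaling (adjusted p = 0.0601). Slc2a12 (GLUT12) was 2.11-fold lower (log2 fold change -1.08, limma adjusted p = 0.00307; -1.75 with quantile normalization).

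Of the Slc16 carriers and their chaperones, 15 of 16 were tested, with 3 called higher and 9 lower (median log2 fold change -0.78, against 0.23 for all tested genes). Slc16a13, a member of that family, averaged 576 ± 38.1 in Sav1-null and 1764 ± 215 in wild-type libraries, 3.05-fold lower. Emb (embigin), a chaperone of monocarboxylate carriers, was 2.80-fold higher, at 1545 ± 183 in Sav1-null and 549 ± 21.7 in wild-type libraries. Slc16a5 was 1.99-fold higher. The limma adjusted p of these 3 ranged from 2.00e-06 (Slc16a13) to 5.41e-05 (Slc16a5).

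Scaffolds and partners of the carriers were lower or not called. Of 10 genes for scaffolds, accessory proteins and the sodium gradient, 6 were called lower and none higher (median -0.65), but 4 lower and 3 higher with quantile normalization and 4 lower and 2 higher with equal library totals. Pdzd3, a PDZ scaffold of the brush border, was 3.99-fold lower and Fxyd2, the gamma subunit of the sodium pump, 2.001-fold lower (limma adjusted p = 1.93e-05 and 3.76e-05). The Fxyd2 call was lost with quantile normalization. Pdzk1ip1 (MAP17), the small protein that SGLT2 needs for activity, averaged 10595 ± 2060 in Sav1-null and 11406 ± 1530 in wild-type libraries and was not called (log2 fold change -0.12, limma adjusted p = 0.512). Its direction turned with equal library totals (0.27) and with quantile normalization, where it was called higher (0.58, adjusted p = 0.0128). It was picked for its known role after its value was seen.

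Of 13 transcription factors, 5 were called higher and 7 lower (6 and 3 with equal library totals). Hnf4a, which drives proximal tubule genes, was 2.31-fold lower (log2 fold change -1.21, limma adjusted p = 0.00015; -0.48 with quantile normalization). Hif1a, the oxygen-regulated factor known to act on Slc2a1, was 2.36-fold higher, and Myc was 12.4-fold higher (limma adjusted p = 6.98e-06 and 2.13e-06). Epas1, of the same list, was 1.59-fold lower (log2 fold change -0.67, limma adjusted p = 0.0119), a call lost with equal library totals. The part of Hif1a or Epas1 in the Slc2a1 value was not tested. Myc averaged 729 ± 151 in Sav1-null and 59.1 ± 18.6 in wild-type libraries.

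The enzymes that use the carried sugars and lactate split as well. Of 13 listed genes 12 were tested, and 5 were called higher and 7 lower (median -0.89), with 3 higher and 7 lower without Sav1-null replicate 2 or with median-of-ratios scaling. Ldhd, the mitochondrial D-lactate dehydrogenase, was at 4483, 3355, 4642 and 1989 in Sav1-null libraries, against 59263, 55532, 44810 and 62857 in wild-type libraries. It lay over an order of magnitude lower in every Sav1-null library than in the mean of the wild-type libraries (16.1-fold, log2 fold change -4.01, limma adjusted p = 2.25e-06; -3.37 with quantile normalization). Dak, which phosphorylates the glyceraldehyde made from fructose, was 2.11-fold lower, Hk1, a hexokinase that traps glucose in the cell, was 2.81-fold higher, and Txnip, whose product restrains glucose uptake through GLUT1, was 3.68-fold higher (log2 fold change 1.88; 2.57 with quantile normalization). The limma adjusted p of these 3 were 1.12e-05, 5.85e-05 and 4.48e-06.

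Beside Slc2a9, 6 of 7 other urate transport genes were called lower and none higher, with a median log2 fold change of -2.25. Slc17a1 (NPT1), an apical anion carrier, was 4.76-fold lower, at 4191 ± 1086 in Sav1-null and 19428 ± 774 in wild-type libraries (limma adjusted p = 5.29e-06; log2 fold change -2.25, and -1.63 with quantile normalization). Slc2a9 at -0.41 thus changed less than the median of that list.

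Segment lists are given to place the 2 main glucose carriers. Of 6 genes of the early proximal tubule, where SGLT2 lies, 5 were called lower and none higher (median -2.17; 3 lower with quantile normalization), with Gatm 13.8-fold lower at 1641 ± 807 in Sav1-null and 20832 ± 4900 in wild-type libraries. Of 6 genes of the late proximal tubule, where SGLT1 lies, 4 were called lower and none higher (median -1.86). Without both wild-type libraries of higher Havcr1, 2 of the 6 were called lower. Slc7a13, a carrier of that last segment known to be higher in male mice, averaged 7.95 ± 6.03 in Sav1-null and 18986 ± 1670 in wild-type libraries. Slc6a18 of that list was called higher without Sav1-null replicate 4, with quantile normalization and with equal library totals, and in the fit of all libraries Slc5a1 was called higher and none of the 6. All 13 genes of the injured tubule list were called higher (median 4.06), among them Prom1, a stem cell surface protein, at 8.40-fold and Cd24a at 8.73-fold (limma adjusted p = 6.85e-07 and 8.29e-07). The part of injured cells in the carrier values was not tested.

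**Figure D4:**
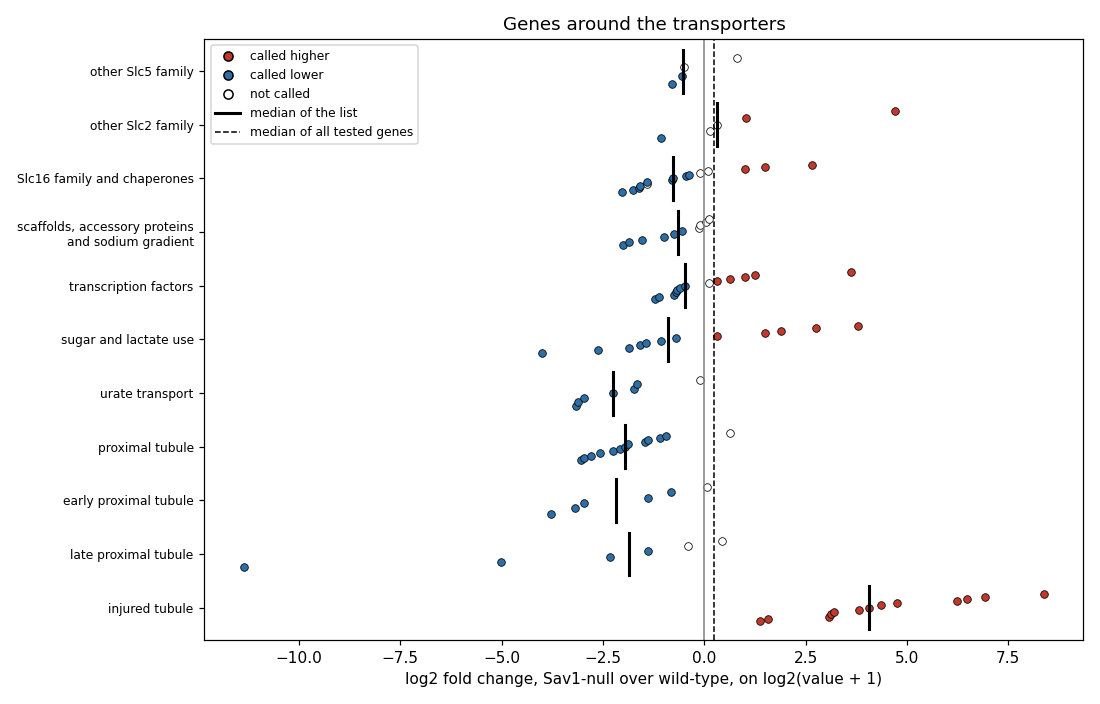
Log2 fold change, Sav1-null over wild-type, of every tested gene of each list, with 1 point per gene, the list median as a bar and the median of all tested genes as a line. The injured tubule list lies wholly to the right (median 4.06) and the early proximal tubule, proximal tubule and urate lists lie mostly to the left (medians of -2.17, -1.97 and -2.25).

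Profiles most like those of the carriers at either end were sought over the 8 libraries among 11937 genes with a mean of at least 50, by the root mean square difference of log2 values taken from the wild-type mean. Nearest to Slc5a2 were Tmem26 (0.119), Slc6a19 (0.170) and Proz (0.208). Slc6a19, the neutral amino acid carrier of the early proximal tubule, averaged 591 ± 307 in Sav1-null and 4860 ± 968 in wild-type libraries. The member nearest to Slc5a2 was Slc5a8 (0.493), which ranked 75th. Nearest to Slc2a1 were 6430527G18Rik (0.0465), Ttyh3 (0.0604) and Tapbp (0.0650). Tapbp, the tapasin of antigen presentation, averaged 4450 ± 943 in Sav1-null and 1684 ± 198 in wild-type libraries. The member nearest to Slc2a1 was Slc5a1 (0.503), at rank 1890.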

How the data were processed

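RNA sequencing of kidney cortex was used in 4 Sav1-null and 4 wild-type libraries, grouped by sample title. The deposited values are a normalized signal per gene made by the authors, not counts. Per the labels' protocols, RNA was column-purified and libraries came from a stranded mRNA kit. The submitters' processing notes name build mm9 with RSEM, SAMtools and Picard 1.64. Not given in the sources used here were the aligner, the annotation and the strand setting. Low values fall on steps that give the depths stated. From 92.7% to 93.3% of the values below 400 lay within 0.02 read of a whole multiple, which was too few for a count model. Depth limits precision by counting error only in part, since libraries of a group differed by far more (chi-square per degree of freedom 12.9 to 114). Whether each library is a separate animal is not stated, so a p-value sets the groups against library-to-library spread that may be technical.

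Values were compared as log2(value + 1), which understates changes of low genes, with limma 3.58.1 in R 4.3.3 (moderated variances with a trend, 6 residual degrees of freedom). Genes with a mean of at least 10 were tested, and p-values were adjusted over all 13677 by Benjamini-Hochberg. Log2 fold changes have Sav1-null on top, and folds are their antilogs. The test was checked on simulated data with few genes changed, equally in both directions, and with the wild-type spread in both groups. The real data differ on each of these points, so that check does not cover their setting. The 3 ratios were tested by two-sided exact permutation. Lengths and exon overlaps came from GENCODE M21, and start windows from RefSeq, both on GRCm38. Replicate numbers were not used as pairs: same-numbered libraries deviated together with correlations of -0.17 to 0.14. The members and lists were chosen with earlier results of these data known. Named are all members, up to 2 called genes with the smallest p per list and direction, the 3 profiles most like Slc5a2 and Slc2a1, and Sav1; others were chosen after their values were seen. Some items that this rule selects are not reported here. Alternatives were 2 pseudocounts, no filter, 3 scalings, a replicate block, leaving out each library and, added after seeing the data, leaving out both wild-type libraries with higher Havcr1 and using coding length.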

Additional observations from a re-analysis of the deposited data

How the results depend on the processing

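Slc5a1, Slc5a2, Slc5a8, Slc2a1 and Slc2a5 kept direction and call under every alternative run. Leaving out 1 library gave log2 fold changes of 0.89 to 1.23 for Slc5a1, -3.39 to -2.89 for Slc5a2, -2.79 to -2.24 for Slc5a8, 1.25 to 1.43 for Slc2a1, -1.55 to -1.07 for Slc2a5, -1.13 to -0.68 for Slc2a2, -0.61 to -0.51 for Slc5a10, -0.99 to -0.32 for Slc5a12, -0.32 to -0.21 for Slc2a4 and -0.49 to -0.30 for Slc2a9. The last 2 lost their call in 4 and 3 of the 8 cases. The ratios spanned 4.09 to 4.34 (Slc5a1 over Slc5a2), 1.93 to 2.51 (Slc2a1 over Slc2a2) and -2.01 to -1.66 (Slc5a8 over Slc5a12), with an exact permutation p of 0.0571, the smallest that 3 against 4 allows.

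Scaling moved the median of all genes from 0.23 to 0.00 (median of ratios), -0.02 (quantile) and 0.62 (equal totals). The calls were 6002 higher and 3452 lower as deposited, 4592 and 4650 with median of ratios, 4311 and 4515 with quantile normalization, and 8733 and 1946 with equal totals. Slc5a2 was at -3.45, -3.04 and -2.84 under these 3, in that order, and Slc5a1 at 0.79, 1.18 and 1.40. Slc5a10 was at -0.065 with quantile normalization and -0.16 with equal totals, where Slc2a4 turned to 0.11 and Slc2a9 came to -0.025. Without both wild-type libraries of higher Havcr1, Slc2a2 was at -0.97, Slc2a4 at -0.30 (adjusted p = 0.0976) and Slc2a9 at -0.39 (adjusted p = 0.0956). The causes were not tested.

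With the replicate number as a block, Slc5a12 was called (-0.72, limma adjusted p = 0.00600) and Slc2a4 was not (-0.27, adjusted p = 0.0653), with 5927 genes higher and 3391 lower. The ratios of 4.24, 2.32 and -1.88 then had an exact sign-flip permutation p of 0.125, the smallest that 4 pairs allow. Per coding length, Slc5a1 made up 79.98% of Slc5a1 plus Slc5a2 in Sav1-null and 17.7% in wild-type libraries, Slc2a1 17.3% of Slc2a1 plus Slc2a2 in wild-type libraries, and Slc5a8 43.5% of Slc5a8 plus Slc5a12 in Sav1-null and 73.5% in wild-type libraries.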

Other observations

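Several proximal tubule carriers outside these families were not called lower, among them Slc7a8, Slc22a13, Slc22a19, Slc13a1 and Slc6a18. The last 2 were chosen for description after their values were seen. Slc13a1, the sodium sulfate cotransporter, was at 19547, 15612, 19724 and 6043 in Sav1-null libraries, against 7997, 9557, 9767 and 8554 in wild-type libraries. It lay above the wild-type range in Sav1-null replicates 1 to 3 and below it in replicate 4, and was not called (log2 fold change 0.63, limma adjusted p = 0.126). Without Sav1-null replicate 4 it was called higher (1.02, adjusted p = 2.94e-05). Slc6a18, an amino acid carrier of the late segment, averaged 14416 ± 4775 in Sav1-null and 10164 ± 788 in wild-type libraries (0.44, limma adjusted p = 0.1005; 0.66 and 0.00179 without the same library). The myo-inositol carrier Slc5a3 followed, at 2087 ± 994 in Sav1-null and 1100 ± 192 in wild-type libraries (0.79, limma adjusted p = 0.0590; 1.14 and 0.000772 without it). Slc5a1 was lowest in that library too, at 1973, and was called with and without it.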
